A study of Sus scrofa with 32 samples.

Results

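HOX, T-box and related patterning genes encode transcription factors that lay out the body of the embryo, and many of them stay active in adult muscle as a record of where along the body a cell arose. The genes described here are those whose symbol begins with HOXA, HOXB, HOXC, HOXD, TBX, PAX, PITX, MEOX, LBX, IRX, FOXC, FOXD, FOXF or FOXP followed by a number. Of 17930 genes listed in the loin muscle of 32 pigs, 44 met this rule, and 27 of the 44 had enough reads to be tested between breed groups. Of the 44, 20 were on in the loin by their median over all 32 libraries. HOXC10 and HOXA7 were higher in every Dapulian-derived group than in Landrace without overlap between libraries. TBX18 and TBX2 were lower in each of these groups. Only Dapulian for TBX18 and the Landrace x Dapulian cross for TBX2 did not overlap with Landrace. How many of all genes tested lacked such overlap was not counted. Here and below, a lack of overlap is therefore not shown to be particular to these genes.

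HOX genes lie in clusters named A to D, and the number of a HOX gene is its place in the cluster. Low numbers are used towards the head and high numbers towards the tail, and the loin lies in the stretch of the trunk where the middle and higher numbers are used. T-box factors pattern the limbs, the heart and the mesoderm. PAX, MEOX, LBX and PITX factors act in the somites, the blocks of embryonic tissue from which trunk muscle comes, and in the precursors of muscle cells. IRX and FOX factors act in many tissues, and some FOXP members are repressors in blood, heart and nerve.

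The libraries came from the longissimus dorsi, the loin muscle, and all groups are labelled wild type, 6 months of age, and kept on similar feed in a similar environment. The groups were Duroc x Landrace x Dapulian (DLDPL), Landrace x Dapulian (LDPL), Dapulian (DPL), an indigenous Chinese breed, and Landrace (L), a lean commercial breed, with 8 libraries in each. The labels give no sex, no batch and no sampling point along the muscle. They speak of 32 pigs, and if some libraries shared a pig, the p-values would reflect the spread between samples and not between animals. Libraries held 21.7 to 29.7 M reads, and no pair within a group agreed within sampling noise. The main axis of variation over all genes, a principal component holding 22.6% of it, set the L libraries apart from all others. Because L replicate numbers are also a series of their own, a breed difference and separate handling of the L libraries cannot be told apart. The muscle fibre markers ACTA1, NEB, MYBPC1 and DMD had reads in all 32 libraries, with medians of 55830, 10700, 2117 and 155.5 CPM, the counts scaled to a common library size. Their summed level was 42090 to 84290 CPM (median 65060) in DLDPL, 56140 to 86100 CPM (median 65790) in LDPL, 34360 to 81120 CPM (median 52420) in DPL and 33760 to 107600 CPM (median 95600) in L. In DPL, 2 of the 4 (50%) were lower than in L, where 18.9% of all genes tested were lower. They were ACTA1, with a log2 change of −0.81 (adjusted p 0.00534), and DMD, with −0.32 (0.0139). None of the 4 markers was called in DLDPL or LDPL. Their part in the changes below was not tested.

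Levels of different genes were compared in the deposited RPKM, reads scaled to gene length and to the library total, and a gene was taken as on at a median of at least 0.5 RPKM over the 32 libraries. By this measure HOXC10 led the genes with a median of 19.2 RPKM, followed by HOXC6 with 14.9 RPKM. This order did not hold in L. There HOXC6 had a median of 19.7 RPKM and HOXC10 6.42 RPKM, under HOXD9 (6.93 RPKM) and MEOX2 (6.46 RPKM). The medians that follow are again over all 32 libraries. HOXD9 had 7.19 RPKM, HOXA7 7.10 RPKM, HOXD1 4.87 RPKM, HOXA5 4.00 RPKM and HOXD4 3.17 RPKM. The order of neighbours such as HOXD9 and HOXA7 is not resolved, since their libraries spread from 4.84 to 11.1 and from 1.67 to 11.4 RPKM. HOXA3 (0.892 RPKM), HOXD3 (0.714 RPKM) and HOXB2 (0.612 RPKM) were the lowest HOX genes above the threshold. Among the HOX genes that were on, 3 were of cluster A, 1 of B, 2 of C and 4 of D. Taken by group, the set of genes at or above 0.5 RPKM differed. In L, HOXB3 (median 0.762 RPKM), HOXB4 (0.598 RPKM), HOXB6 (0.752 RPKM) and HOXB7 (0.785 RPKM) also reached it. In DPL, TBX18 (0.433 RPKM) and TBX2 (0.480 RPKM) did not.

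The other genes that were on were led by MEOX2, a homeobox factor of the somite and of limb muscle, with a median of 6.54 RPKM. IRX3, an Iroquois homeobox factor, had 6.45 RPKM and ranged from 1.97 to 17.7 RPKM between libraries. FOXP1 had 3.80 RPKM, PITX3, a homeobox factor of eye lens, dopamine neurons and muscle, 3.14 RPKM, and MEOX1, the somite partner of MEOX2, 2.39 RPKM. LBX1, which marks migrating muscle precursors in the mouse embryo, had 2.13 RPKM. TBX3, a T-box repressor of limb and mammary development, had 2.05 RPKM, FOXP4 1.81 RPKM, TBX18, a factor of pericytes and other mesenchyme in the mouse, 1.07 RPKM and TBX2, the close relative of TBX3, 0.685 RPKM.

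Just under the threshold were HOXB7 with 0.486 RPKM and HOXB4 with 0.470 RPKM, so the count depends on the threshold: 16 genes reached a median of 1 RPKM and 27 a median of 0.1 RPKM. HOXB6 (0.335 RPKM), HOXB3 (0.318 RPKM), FOXP2 (0.150 RPKM), TBX21, the T-bet factor of T and NK cells (0.138 RPKM), and PAX9 (0.0920 RPKM) were low but could still be tested. The other 17 genes did not pass the filter on low counts. PAX3, which is active in embryonic muscle precursors, had 9 reads in all, and TBX5 and TBX20, both factors of the heart, had 2 reads each. Above number 10 in the HOX clusters, HOXB13 had 1 read and HOXC11 had 2. HOXA11, HOXC12, HOXC13, HOXD11 and HOXD12 had no listed value, so nothing is said of their level here. Further members below the filter were HOXA2, HOXA10, HOXB5, HOXB8, HOXD10, FOXC2, FOXP3, IRX4, IRX6, PAX1 and TBX19, with 7 to 114 reads over all libraries. No value was listed for 34 further symbols of the same families, among them HOXA9, HOXC8, HOXC9 and PAX7, and these are not analysed here.

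**Figure D1:**
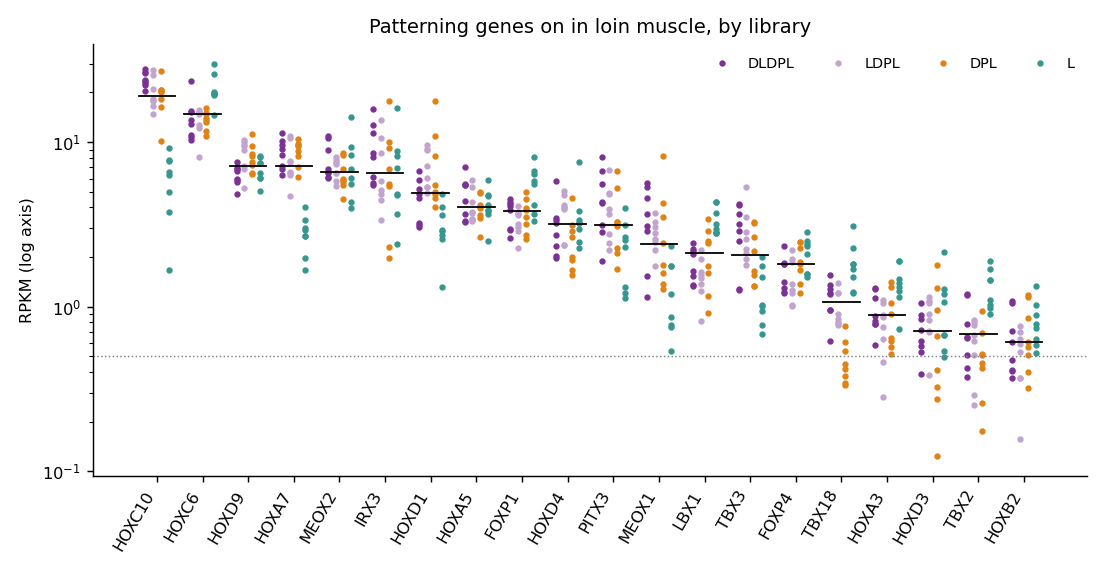
Level of each patterning gene that was on, in RPKM on a log axis, with 1 point per library coloured by breed group (8 libraries each) and a bar at the median of all 32 libraries. The dotted line is the threshold of 0.5 RPKM, and the L points of HOXC10 and HOXA7 all lie under every other point of the gene.

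The spread between pigs of 1 group also differed between genes. HOXA5 varied least, with a biological coefficient of variation of 0.190, against 0.285 for the tested genes in common. IRX3 (0.468), MEOX1 (0.474) and HOXB3 (0.479) varied far more, and TBX21, with few reads, most (0.668). Changes of equal size were therefore less easily called in IRX3 than in HOXA5.

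The comparisons between breeds used edgeR's quasi-likelihood test on the counts, with Benjamini-Hochberg adjustment over all 12821 genes tested and a call at an adjusted p under 0.05. DLDPL against L gave 12 of 27 patterning genes, 5 higher and 7 lower, where 11.6% of all genes were higher and 10.3% lower. LDPL against L gave 15 of 27, 6 higher and 9 lower, against 14.9% and 14.7% of all genes. DPL against L gave 11 of 27, 6 higher and 5 lower, against 19.1% and 18.9% of all genes. The shares of members called in DPL, 22.2% higher and 18.5% lower, were near those backgrounds, and those in LDPL, 22.2% and 33.3%, and in DLDPL, 18.5% and 25.9%, were above them. The 3 comparisons share the L libraries, so their values stand side by side below and are not independent. In bulk tissue, fewer cells of a type and less RNA per cell cannot be told apart. The share of reads from mitochondrial genes was 14.8 to 29.7% in DLDPL, 15.8 to 30.0% in LDPL, 22.2 to 37.3% in DPL and 17.3 to 24.8% in L, and its part in the changes was not tested. The median log2 change of the 27 genes was −0.31 in DLDPL, −0.26 in LDPL and −0.17 in DPL, beside −0.02, −0.03 and −0.02 over all genes tested.

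Among the HOX genes of clusters A and C, the highest-numbered tested member of each was higher in the Dapulian-derived groups. HOXC10, which in the mouse is used in the lumbar spinal cord and hindlimb, had 15.5 to 25.8 CPM (median 20.1) in DLDPL, 12 to 21.5 CPM (median 15.8) in LDPL, 11.3 to 23.6 CPM (median 17.8) in DPL and 0.981 to 7.89 CPM (median 5.59) in L. All 24 libraries of the first 3 groups lay above all 8 L libraries. The log2 change was 1.99 ± 0.23 (SE) in DLDPL (adjusted p 2.12e-07), 1.73 ± 0.23 in LDPL (1.33e-06) and 1.77 ± 0.23 in DPL (4.42e-07). L replicate 2 was the lowest library, with 35 reads, and leaving out any single library kept the change at 1.55 or more.

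HOXA7, a trunk gene of cluster A, had 14.6 to 28.9 CPM (median 21.4) in DLDPL, 12.2 to 27.3 CPM (median 17.4) in LDPL, 15.9 to 26.3 CPM (median 23.8) in DPL and 3.75 to 8.17 CPM (median 6.80) in L. Again none of the 24 libraries reached down to the L range. Its change was 1.67 ± 0.17 on the log2 scale in DLDPL (adjusted p 2.35e-08), 1.5 ± 0.17 in LDPL (8.58e-08) and 1.80 ± 0.17 in DPL (1.86e-09). HOXA5, a near neighbour in the cluster, had medians of 9.09, 7.55, 8.52 and 8.28 CPM in DLDPL, LDPL, DPL and L, with changes of 0.20, 0.06 and 0.10 that were not called (adjusted p 0.312, 0.772 and 0.603). HOXA3, a gene of the neck and upper trunk, was lower in LDPL, where it had 0.678 to 2.51 CPM (median 1.81), against 1.52 to 4.25 CPM (median 3.09) in L, a change of −0.81 ± 0.25 (adjusted p 0.0131). In DLDPL it had 1.37 to 3.02 CPM (median 1.98) and in DPL 1.14 to 3.36 CPM (median 2), with changes of −0.52 and −0.48 that were not called (adjusted p 0.126 and 0.123).

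HOXC6, the other tested gene of cluster C, was lower where HOXC10 was higher. It had 10.6 to 20.7 CPM (median 14.0) in DLDPL, 9.11 to 16.9 CPM (median 15.2) in LDPL, 12.1 to 19.9 CPM (median 15.6) in DPL and 15.5 to 27.3 CPM (median 21.7) in L. The groups overlapped, and in all 3 the libraries lay under the L median, 8 of 8 each. The change was −0.56 ± 0.14 in DLDPL (adjusted p 0.00424), −0.57 ± 0.14 in LDPL (0.00274) and −0.44 ± 0.14 in DPL (0.0136).

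A ratio of reads within 1 library does not depend on how libraries are scaled to each other. HOXC10 had 0.745 to 1.98 reads per HOXC6 read in DLDPL (median 1.47), 0.746 to 1.61 in LDPL (1.23), 0.570 to 1.56 in DPL (1.11) and 0.0442 to 0.415 in L (0.256). HOXA7 had 7.73 to 21.1 reads per HOXA3 read in DLDPL (median 8.48), 8.28 to 18.3 in LDPL (10.7), 7.31 to 19.9 in DPL (10.7) and 1.54 to 2.86 in L (2.33). In both ratios every L library lay under every other library. Each sets a gene with a change above 0 against L over a gene with a change below 0. The low L ratios thus follow from the changes given above and are no separate support. HOXA7 per HOXA5 read was 1.54 to 3.60 in DLDPL (median 2.08), 1.36 to 3.45 in LDPL (2.40), 1.86 to 3.36 in DPL (2.59) and 0.542 to 1.47 in L (0.817), and here 1 L library reached into the LDPL range. A further measure was the share of reads of the listed HOX genes that came from genes numbered 9 and above. It was 29.2 to 40.4% in DLDPL (median 35.3%) and 28.5 to 38.3% in LDPL (34.1%). In DPL it was 31.2 to 35.6% (31.7%) and in L 11.8 to 30.5% (26.0%). Here the ranges of DLDPL and LDPL overlapped with that of L. HOX genes without a listed value, among them HOXA9, HOXC8 and HOXC9, are missing from this share.

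**Figure D2:**
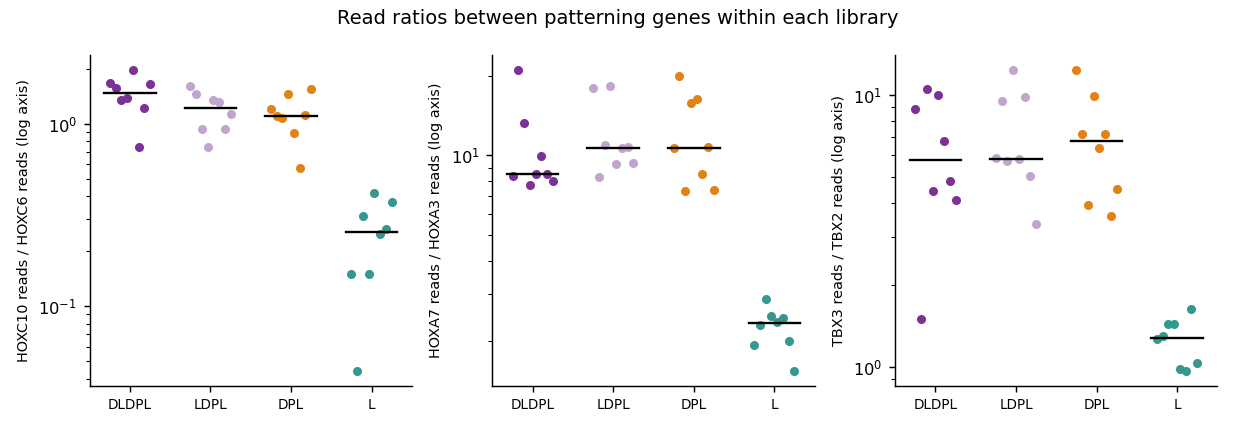
Ratio of reads between pairs of patterning genes within each library, on a log axis, with 1 point per library and a bar at the group median. The HOXC10 to HOXC6 and HOXA7 to HOXA3 ratios of the 8 L libraries lie below all others, and the TBX3 to TBX2 ratio of 1 DLDPL library, 1.5, lies inside the L range.

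Cluster B was low throughout, and of its 5 tested genes 2 were lower in DLDPL, 3 in LDPL and 1 in DPL, and none higher. Of all genes, 10.3%, 14.7% and 18.9% were lower, so 1 of 5 in DPL was near that share. Those higher made 11.6%, 14.9% and 19.1% of all genes. HOXB6, a trunk gene, had 0.250 to 0.684 CPM (median 0.360) in DLDPL, 0.148 to 0.827 CPM (median 0.453) in LDPL, 0 to 0.525 CPM (median 0.383) in DPL and 0.465 to 1.71 CPM (median 0.993) in L. Its change was −1.25 ± 0.35 in DLDPL (adjusted p 0.0105), −1.10 ± 0.35 in LDPL (0.0174) and −1.56 ± 0.36 in DPL (0.000929). All 8 libraries of each group lay under the L median. HOXB3, a gene of hindbrain and neck, had 0.173 to 0.740 CPM (median 0.384) in DLDPL, 0.0811 to 0.678 CPM (median 0.263) in LDPL, 0.0974 to 1.29 CPM (median 0.445) in DPL and 0.327 to 1.35 CPM (median 1.01) in L. The change in LDPL was −1.70 ± 0.41 (adjusted p 0.00218). In DLDPL it was −1.12 ± 0.40 (0.0402), a call lost without DLDPL replicate 6, 18, 27, 28, 29 or 32, without L replicate 1, 2, 4, 5, 7 or 9 (adjusted p up to 0.0760) and without the filter (0.0565), and in DPL −0.76 ± 0.39 was not called (0.124).

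HOXB7 was lower in LDPL, with 0.248 to 0.649 CPM (median 0.546) against 0.542 to 1.37 CPM (median 1.05) in L, a change of −1.12 ± 0.33 (adjusted p 0.0111). In DLDPL it had 0.0864 to 1.41 CPM (median 0.578) and in DPL 0.338 to 1.06 CPM (median 0.588), with changes of −0.71 and −0.64 that were not called (adjusted p 0.117 and 0.122). HOXB2 had changes of −0.31, −0.58 and −0.03 in DLDPL, LDPL and DPL, and HOXB4 had −0.10, −0.26 and −0.15, none called. The 5 estimates of cluster B were below 0 in all 3 comparisons and under every scaling and tool tried. At these levels a gene rests on few reads per library, 390 to 588 reads over all libraries.

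In cluster D the lowest-numbered gene moved. HOXD1 had 5.92 to 12.3 CPM (median 8.16) in DLDPL, 9.04 to 17.6 CPM (median 12.9) in LDPL, 7.72 to 35.3 CPM (median 11.2) in DPL and 2.24 to 9.76 CPM (median 5.46) in L. It was higher in LDPL by 1.19 ± 0.26 (adjusted p 0.000936) and in DPL by 1.39 ± 0.27 (0.000104), and the 0.52 ± 0.26 in DLDPL was not called (0.160). DPL replicate 7 was the highest library, and without it the change in DPL was 1.09 (adjusted p 0.000434). HOXD9, a gene of lumbar levels and limbs, had 8.89 to 14.7 CPM (median 11.5) in DLDPL, 9.69 to 20.6 CPM (median 17.3) in LDPL, 12.7 to 22.0 CPM (median 15.4) in DPL and 6.61 to 16.3 CPM (median 13.0) in L. It was called in the test of any difference among the 4 groups (adjusted p 0.0214) and in no pair, where its smallest adjusted p was 0.0556, for DPL against L. That change, 0.38, was called by DESeq2 (0.0432) and under RLE scaling (0.0497), and DESeq2 also called HOXD9 lower in DLDPL than in DPL (−0.51, adjusted p 0.0355, against 0.0620 by edgeR). HOXD3 and HOXD4 were not called in any pair, with changes between −0.45 and 0.19 against L.

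**Figure D3:**
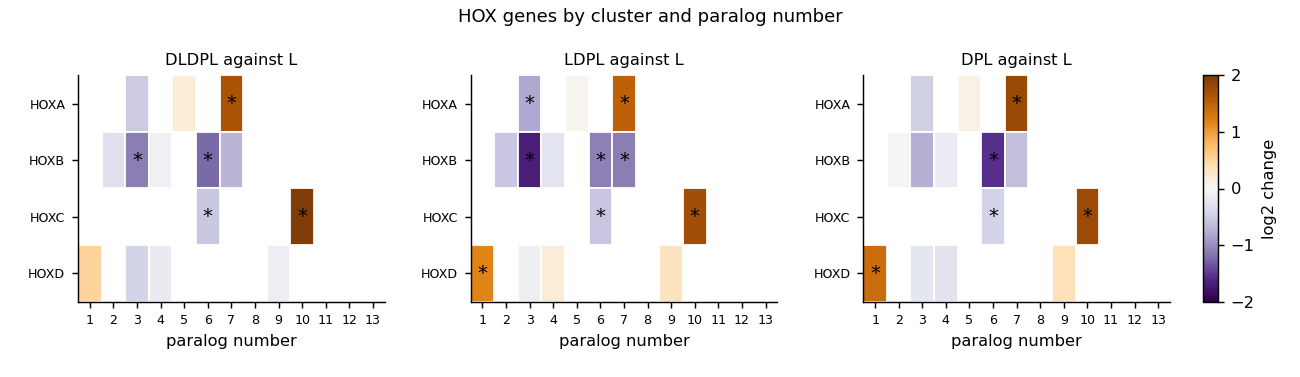
Log2 change of each tested HOX gene against L, by cluster (rows) and paralog number (columns), for DLDPL, LDPL and DPL. Brown is higher than L and purple lower, a star marks an adjusted p under 0.05, and white was not tested. HOXA7 and HOXC10 are the strongest brown in each panel, and cluster B has no brown square.

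Below the filter, 4 genes are described that were picked out after their values were seen. HOXA10, the cluster A counterpart of HOXC10, had 3 to 8 reads per library in DLDPL, 0 to 8 in LDPL and 2 to 11 in DPL, and 0 reads in all 8 L libraries. Summed over a group this was 37, 33 and 44 reads, against 0 in L. A count of 0 in L was given a limit of 3 reads over the group. The pooled level was 13.3 times that limit in DLDPL, 12.4 times in LDPL and 16.6 times in DPL. These are not lower bounds, since the sampling error of the pooled reads and the spread between pigs are not counted in. In a fit of all 17930 genes without the filter, which called 14.9%, 20.3% and 27.9% of genes for DLDPL, LDPL and DPL, the adjusted p of HOXA10 was 2.94e-05, 2.41e-05 and 4.50e-06. HOXD10 had 23 reads in DLDPL, 23 in LDPL, 37 in DPL and 4 in L, with adjusted p of 0.0875, 0.0613 and 0.0112 in that fit, so that DPL was called. HOXB5 went the other way, with 24, 6 and 4 reads against 47 in L, and was called lower in LDPL (0.0158) and DPL (0.00466) but not in DLDPL (0.464). TBX19 had no read in LDPL and 12 in L, all 12 from 3 libraries (adjusted p 0.0309).

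**Figure D4:**
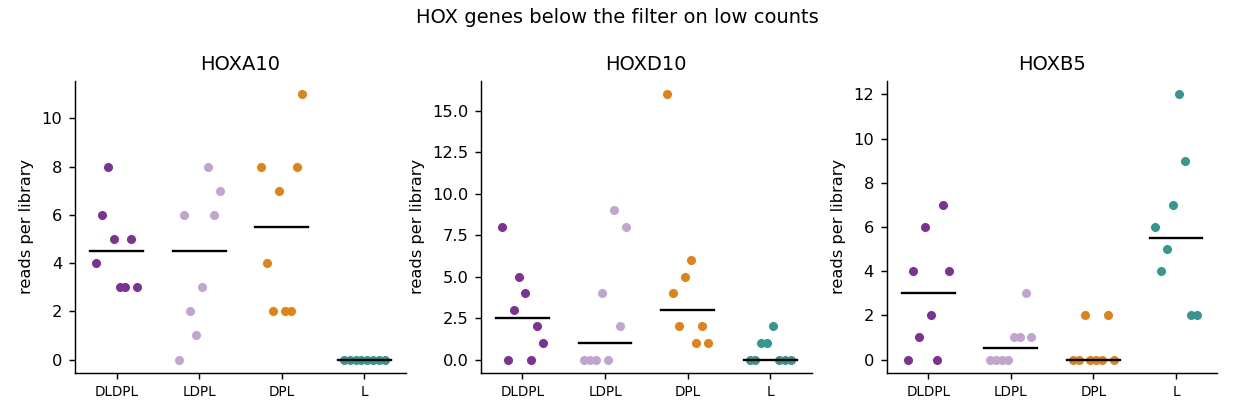
Reads per library of 3 HOX genes below the filter on low counts, with 1 point per library and a bar at the group median. HOXA10 is at 0 in every L library, and HOXB5 has its highest count, 12 reads, in L.

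Reads of several members are uncertain, because the library kit does not mark strand and 16 of the 42 members found in RefSeq overlap another gene there. HOXA7, HOXA10, HOXB3, HOXB5, HOXB6, HOXC6 and LBX1 each overlap a long noncoding RNA, the same one for HOXB5 and HOXB6. HOXA3 overlaps HOXA5 and the long noncoding RNA that HOXA7 overlaps, among others, and HOXD9 overlaps HOXD10. HOXC10, HOXD1, the T-box genes named as called here, MEOX1 and PITX3 had no such overlap. The part of these overlaps in the changes was not tested.

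Of the 4 tested T-box genes, 2 were lower and 1 higher in each Dapulian-derived group than in L, under every scaling and tool tried. Of all genes, 10.3%, 14.7% and 18.9% were lower and 11.6%, 14.9% and 19.1% higher in DLDPL, LDPL and DPL. In a list of 4, 1 call moves the share much. TBX18 had 2.03 to 5.63 CPM (median 4.92) in DLDPL, 3.12 to 5.20 CPM (median 3.55) in LDPL, 1.43 to 3.18 CPM (median 2.02) in DPL and 4.44 to 9.32 CPM (median 6.99) in L. DPL lay wholly under L, and both crosses overlapped with it. The change was −0.62 ± 0.19 in DLDPL (adjusted p 0.0165), −0.81 ± 0.19 in LDPL (0.00157) and −1.75 ± 0.20 in DPL (3.59e-08).

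TBX18 also differed between the crosses and DPL, though libraries of both crosses overlapped with those of DPL. It was higher in DLDPL than in DPL by 1.13 ± 0.20 (adjusted p 0.00120) and in LDPL than in DPL by 0.94 ± 0.20 (0.00747), so that DPL was lowest, L highest and the crosses lay between, with no call between DLDPL and LDPL (0.19 ± 0.19, adjusted p 0.888). Fibroblast markers moved in the same order, and so did the summed level of 4 endothelial markers, with overlap between groups. The endothelial medians were 109.3 CPM in DLDPL, 90.55 CPM in LDPL, 82.55 CPM in DPL and 118.9 CPM in L. Of these 4, 1 was lower than in L in DLDPL (25%), 3 in LDPL (75%) and 2 in DPL (50%), and 0 were higher. Of all genes, 10.3%, 14.7% and 18.9% were lower than in L in DLDPL, LDPL and DPL. Of 5 fibroblast markers with reads, 0 were lower in DLDPL, 3 (60%) in LDPL and 4 (80%) in DPL, and none was higher. Their summed level was 940.5 to 2113 CPM (median 1372) in DLDPL, 544.2 to 1602 CPM (median 1215) in LDPL, 343.1 to 1351 CPM (median 739.5) in DPL and 1292 to 2279 CPM (median 1805) in L. None of the 5 was at 0 in any group. DCN, a proteoglycan made by fibroblasts, had changes of 0.06, 0.03 and −0.07, and the collagen gene COL3A1 had −0.54, −1 and −2.17 in DLDPL, LDPL and DPL. Smooth muscle and pericyte markers moved in both directions. Of 6 with reads, none was at 0 in any group. In DLDPL 3 were higher (50%) and 1 lower (16.7%), and in LDPL 2 higher (33.3%) and 1 lower (16.7%). In DPL 2 were higher (33.3%) and 3 lower (50%). Of all genes, 11.6%, 14.9% and 19.1% were higher in DLDPL, LDPL and DPL, beside the shares lower given above. NOTCH3, a receptor of pericytes and vessel smooth muscle, was lower in all 3 groups, with −0.56, −0.78 and −1.09 (adjusted p 0.0247, 0.00139 and 2.03e-05), and the pericyte receptor PDGFRB had −0.56, −0.47 and −0.85, called in DPL (0.00953). The contractile genes TAGLN and ACTA2 were higher in all 3, TAGLN by 1.05, 0.93 and 1.29 and ACTA2 by 0.80, 0.70 and 0.57. The summed level of the 6 was 102.3 to 246.5 CPM (median 198.3) in DLDPL, 105.9 to 251.2 CPM (median 175.6) in LDPL, 111.6 to 219.4 CPM (median 154.9) in DPL and 105.1 to 163.5 CPM (median 141) in L. The part of fibroblasts, endothelium, pericytes and smooth muscle in the TBX18 change was not tested.

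TBX2 and TBX3, the closely related pair of repressors, went in opposite directions. TBX2 had 1.53 to 4.20 CPM (median 2.07) in DLDPL, 0.848 to 3.05 CPM (median 2.29) in LDPL, 0.637 to 3.67 CPM (median 1.76) in DPL and 3.39 to 5.94 CPM (median 4.18) in L. LDPL did not overlap with L. The change was −0.85 ± 0.27 in DLDPL (adjusted p 0.0210), −1.06 ± 0.27 in LDPL (0.00340) and −1.23 ± 0.27 in DPL (0.000567). TBX3 had 6.31 to 20.2 CPM (median 14.3) in DLDPL, 8.32 to 24.0 CPM (median 11.7) in LDPL, 6.55 to 16.7 CPM (median 9.39) in DPL and 3.52 to 9.66 CPM (median 4.93) in L. All 8 libraries of each group lay above the L median, with changes of 1.27 ± 0.25 in DLDPL (adjusted p 0.000407), 1.28 ± 0.25 in LDPL (0.000233) and 1.01 ± 0.25 in DPL (0.00178).

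Within a library, TBX3 had 1.5 to 10.6 reads per TBX2 read in DLDPL (median 5.79), 3.34 to 12.4 in LDPL (5.84), 3.58 to 12.4 in DPL (6.78) and 0.968 to 1.63 in L (1.28). Reads of the pair were thus near balance in L and leaned to TBX3 elsewhere, except in 1 DLDPL library. The ratio restates the opposite changes of the pair and is no separate support. TBX21, the fourth tested T-box gene, had medians of 0.122, 0.249, 0.303 and 0.325 CPM in DLDPL, LDPL, DPL and L and was not called in any pair.

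Of the homeobox genes tied to muscle precursors and somites, MEOX1 and PITX3 were higher and LBX1 lower than in L. MEOX1 had 1.42 to 7.36 CPM (median 3.65) in DLDPL, 1.89 to 4.01 CPM (median 3.06) in LDPL, 1.51 to 9.66 CPM (median 2.88) in DPL and 0.420 to 2.60 CPM (median 1.16) in L. The groups overlapped, and the change was 1.47 ± 0.36 in DLDPL (adjusted p 0.00350), 1.16 ± 0.36 in LDPL (0.0150) and 1.42 ± 0.36 in DPL (0.00229). MEOX2, its relative, had medians of 14.0, 14.4, 14.0 and 13.5 CPM in DLDPL, LDPL, DPL and L, with changes of 0.17 ± 0.17, 0.02 ± 0.17 and 0.03 ± 0.17 that were not called.

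LBX1 had 1.53 to 3.10 CPM (median 2.20) in DLDPL, 1 to 2.87 CPM (median 2.05) in LDPL, 1.22 to 4.65 CPM (median 3.04) in DPL and 2.61 to 5.92 CPM (median 3.86) in L. It was lower in DLDPL, with a change of −0.86 ± 0.23 (adjusted p 0.00575), and in LDPL, with −1.08 ± 0.23 (0.000529), and −0.54 ± 0.22 in DPL was not called (0.0578). Of all genes, 10.3%, 14.7% and 18.9% were lower than in L in DLDPL, LDPL and DPL. Of 6 satellite cell markers with reads, 2 were lower in DLDPL (33.3%), 1 in LDPL (16.7%, near all genes) and 3 in DPL (50%). Their summed level was 49.2 to 82.7 CPM (median 62.1) in DLDPL, 47.7 to 79.1 CPM (median 63.6) in LDPL, 42.9 to 58.7 CPM (median 53.8) in DPL and 74.7 to 146 CPM (median 88.9) in L. None of the 6 was at 0 in any group, and their part in the LBX1 change was not tested.

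PITX3 had 1.70 to 7.56 CPM (median 3.26) in DLDPL, 1.89 to 6.40 CPM (median 3.52) in LDPL, 1.61 to 6.27 CPM (median 2.94) in DPL and 1.01 to 3.04 CPM (median 2.19) in L. The groups overlapped widely. Its change was 1.07 ± 0.31 in DLDPL (adjusted p 0.0113), 0.88 ± 0.31 in LDPL (0.0298) and 0.77 ± 0.31 in DPL (0.0477). The LDPL call was lost without LDPL replicate 8 or 15 or L replicate 5, 8 or 9 (adjusted p up to 0.0900) and in limma on log2(RPKM + 1) (0.0567). The DPL call was lost without DPL replicate 7, 11, 16 or 30 or L replicate 1, 5, 8, 9 or 10 (adjusted p up to 0.147), and under 4 of 7 other settings (up to 0.153). PAX9, a factor of the vertebral column and pharynx, and IRX3 were not called in any pair.

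Of the FOX genes, FOXP1, a forkhead repressor, was lower. It had 17.3 to 27.7 CPM (median 23.0) in DLDPL, 15.3 to 25.4 CPM (median 22.3) in LDPL, 17.5 to 33.7 CPM (median 24.6) in DPL and 21.2 to 52.5 CPM (median 31.9) in L. The change was −0.57 ± 0.16 in DLDPL (adjusted p 0.0116), −0.67 ± 0.16 in LDPL (0.00224) and −0.42 ± 0.16 in DPL (0.0418). The DPL call was lost without DPL replicate 7, 11, 16, 19 or 21 or L replicate 1, 7, 8 or 10 (adjusted p up to 0.138), without the filter and when only the 2 groups were fitted (up to 0.106). FOXP4 was not called in any pair or among the 4 groups (adjusted p 0.0547), nor was FOXP2 (0.197).

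**Figure D5:**
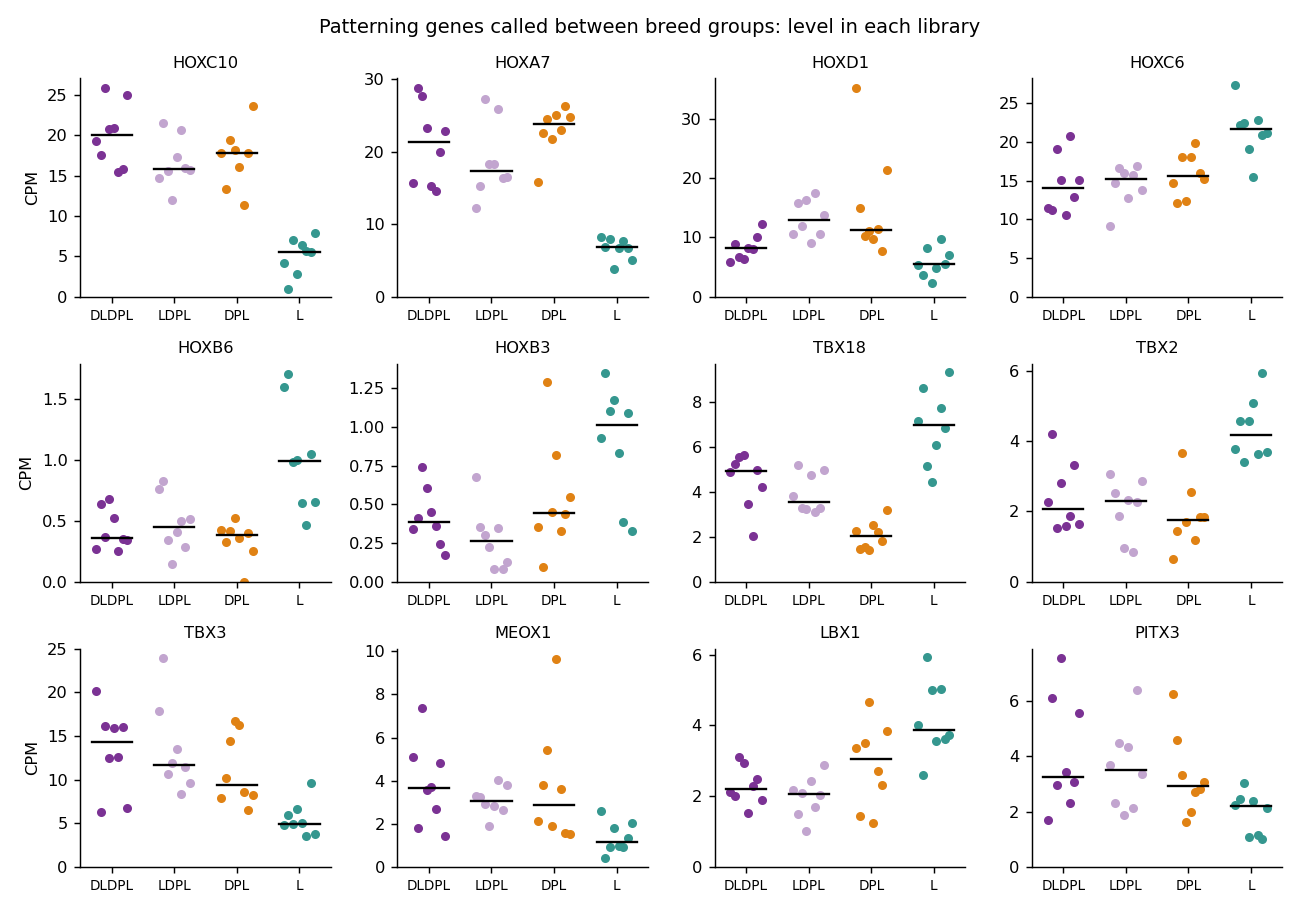
Level in CPM of 12 patterning genes called between breed groups, with 1 point per library and a bar at the group median. HOXC10 and HOXA7 in L lie below all other libraries. The TBX18 medians step down from L through DLDPL and LDPL to DPL, with overlap between libraries. The other genes overlap between at least 2 groups.

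Between the groups other than L, few patterning genes were called. DLDPL against DPL gave 2 of 27, 1 higher and 1 lower, where 1.98% of all genes were higher and 2.12% lower. These were TBX18, higher in DLDPL as given above, and HOXD1, lower in DLDPL with a change of −0.87 ± 0.26 (adjusted p 0.0499). The HOXD1 call lay at the threshold: it was lost without DPL replicate 7, 11, 23 or 30 or DLDPL replicate 6, 18, 20, 25, 27, 28 or 29 (adjusted p up to 0.148) and under 5 of 7 other settings (up to 0.178). LDPL against DPL gave TBX18 alone, 1 higher and 0 lower, where 1.29% of all genes were higher and 1.56% lower.

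DLDPL against LDPL gave 0 of 27 patterning genes by edgeR, DESeq2 and limma, where edgeR called 0% of all genes in either direction. At an unadjusted p under 0.05 there were 2, HOXD9 (−0.46 ± 0.16) and HOXD1 (−0.67 ± 0.26), both lower in DLDPL. Over all genes, 969 had an unadjusted p under 0.05, and DESeq2 called 33. HOXA7 differed by 0.16 ± 0.17 between DLDPL and LDPL and by −0.13 ± 0.17 between DLDPL and DPL, and HOXC10 by 0.27 ± 0.22 and 0.22 ± 0.22, none called. The test of any difference among the 4 groups called 16 of 27 patterning genes, against 37.4% of all genes.

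Genes that act with HOX factors or control them were taken as lists, and their shares called read against the shares of all genes, 11.6% higher and 10.3% lower in DLDPL, 14.9% and 14.7% in LDPL, and 19.1% and 18.9% in DPL. Of 3 tested genes of the TALE homeodomain class, whose PBX members bind DNA together with HOX proteins, PBX3 was lower. Its changes were −0.78 ± 0.23 in DLDPL, −1.13 ± 0.23 in LDPL and −1.18 ± 0.24 in DPL (adjusted p 0.0143, 0.000445 and 0.000171). TGIF1, a repressor of the same class, was higher by 1.36 ± 0.30, 1.45 ± 0.30 and 1.73 ± 0.30 (0.00114, 0.000356 and 2.65e-05), and PBX2 was not called. Of 21 tested regulators of HOX chromatin, none was higher and 3 lower in DLDPL, 1 higher and 3 lower in LDPL, and 2 higher and 4 lower in DPL. The lower ones made 14.3%, 14.3% and 19.0% of the list, near the share of all genes, and the higher ones 0%, 4.76% and 9.52%, under it. The median change of this list was −0.16, −0.05 and −0.10, beside −0.02, −0.03 and −0.02 over all genes. CBX2, a Polycomb subunit that binds silenced HOX chromatin, was lower, with changes of −1.63 ± 0.33, −1.76 ± 0.34 and −2.26 ± 0.35 (0.000601, 0.000177 and 6.09e-06). EZH1, a histone methyltransferase of Polycomb, was lower, with −0.78, −0.51 and −0.63 (0.000214, 0.00703 and 0.000793), and EZH2 was not called.

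Of 15 tested muscle regulators, 1 was higher and 2 lower in DLDPL, 1 higher and 4 lower in LDPL, and 1 higher and 6 lower in DPL, with median changes of −0.26, −0.40 and −0.45. The lower ones made 13.3%, 26.7% and 40.0% of this list, and the higher one 6.67%. MYF6, a muscle factor of mature fibres, was the higher one, by 0.85 ± 0.22, 0.90 ± 0.22 and 1.28 ± 0.22 (adjusted p 0.00497, 0.00220 and 2.94e-05), and SIX4, a homeobox factor upstream of the muscle factors, was lower, with −0.76, −0.85 and −0.79 (0.000234, 4.10e-05 and 5.52e-05). Of 9 other tested patterning factors of mesoderm and limb, 1 was higher and 2 lower in DLDPL, 1 higher and 3 lower in LDPL, and 3 higher and 2 lower in DPL, with median changes of −0.01, −0.23 and −0.29. The higher ones made 11.1%, 11.1% and 33.3% and the lower ones 22.2%, 33.3% and 22.2%. MSX1, a homeobox factor of limb buds, was higher by 1.03, 0.74 and 0.98 (adjusted p 0.00396, 0.0300 and 0.00300), and GLI3, an effector of hedgehog signalling, was lower, with −0.80, −1.02 and −1.66 (0.0112, 0.00113 and 1.80e-06). Of 13 tested genes of retinoic acid signalling, which switches HOX genes on along the trunk, none was higher and 2 lower in each group, with median changes of 0.12, −0.02 and 0.07. That is 15.4% lower in each, near the share of all genes in LDPL and DPL, and 0% higher. In DLDPL the share of all genes lower was 10.3%, and at 13 genes 1 call moves the share much. The receptor RARG was lower, with −0.60, −0.59 and −0.81 in DLDPL, LDPL and DPL (0.00311, 0.00253 and 5.30e-05). Of 9 tested corepressors, 1 was higher and 0 lower in DLDPL, 0 higher and 2 lower in LDPL, and 1 higher and 1 lower in DPL, with median changes of −0.03, −0.08 and −0.16, and at 9 genes 1 call is 11.1%.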

How the data were processed

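The authors deposited 1 file per library. The deposited counts are reads per gene, and the deposited RPKM is those counts scaled to the deposited length (in bases) and the library total (largest relative deviation on recomputing, 2.2e-14). The deposited coverage score, a percent of gene length, and the length were used for description only. Per the submitters' processing notes, the tools were Bowtie 0.12.2 and Cufflinks, with the build mm8, a mouse build, while gene identifiers are of pig. The sources used here do not name the pig build, and no positions are printed. Symbols were found for 10836 of 17930 identifiers (60.4%), and 14.5% of reads were at the others. Genes missing from a file were set to 0.

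Counts passing filterByExpr (minimum count 10, total 15; 12821 genes, 99.97% of reads) were scaled by TMM and fitted over the 4 groups with edgeR 4.0.16 in R 4.3.3, tested on simulated data first. CPM uses TMM library sizes, and the SE is the log2 change divided by the square root of F. Alternatives used DESeq2 1.42.0, limma 3.58.1, other scalings, no filter, 2 groups only, and leaving out each library. Members and lists were chosen with earlier results of these data known. Every tested member was named, with ranges by group where called. Some genes below the filter or without listed reads are not reported here. Replicate numbers shared by LDPL and L did not pair libraries: correlations of deviations were −0.101 to 0.067 over 5 numbers.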

Additional observations from a re-analysis of the deposited data

Results flagged for a closer look

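In 5 of 64 sets of 8 libraries, 1 library lay farther from its nearest neighbour than Dixon's 95% limit allows. The sets are the 16 called members in 4 groups. The limit was applied to log2 CPM, which stretches low values, and all 5 libraries were the lowest of their set. On the plain CPM given below, most of the 5 gaps would not pass it. Chance gives about 5% of sets, so the number is of the order that chance gives. HOXA7 in DPL replicate 7 was at 15.9 CPM, where the next DPL library was at 21.8 CPM and the highest at 26.3 CPM. HOXC6 in LDPL replicate 4 was at 9.11 CPM, where the next was at 12.8 CPM and the highest at 16.9 CPM. HOXB6 in DPL replicate 23 had no read, 0 CPM, where the next was at 0.251 CPM and the highest at 0.525 CPM. HOXD9 in L replicate 2 was at 6.61 CPM, next to 11.1 CPM and up to 16.3 CPM, and the same library was the lowest of all for HOXC10. HOXA3 in L replicate 5 was at 1.52 CPM, next to 2.80 CPM and up to 4.25 CPM.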

How the results depend on the processing

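None of the called members changed direction. Estimates of members not called did so under at least 1 setting in 4 of 16 for DPL against L (FOXP4, HOXA5, IRX3 and MEOX2), 2 of 12 for LDPL against L (HOXA5 and MEOX2) and 0 of 15 for DLDPL against L. Of 41 calls of a member in a pair, 36 held under all 7 other settings and without each library in turn, and the other 5 are described with their genes. Without each library in turn the count was 11 to 13 for DLDPL against L, 14 to 16 for LDPL against L, 9 to 12 for DPL against L, 1 to 3 for DLDPL against DPL, 1 for LDPL against DPL, 0 for DLDPL against LDPL and 13 to 17 for any difference. DLDPL against DPL gave 1 member, not 2, under upper quartile scaling, with no filter, with only the 2 groups and with limma at either pseudocount. The replicate block over the 5 numbers shared by LDPL and L gave 8 members, not 15, and the same 10 libraries without the block gave 9. No library correlated best with its own number.

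Counts over all genes moved by over 1.5 times for DLDPL against DPL (526 in the main test, 802 by DESeq2, 251 with only the 2 groups), LDPL against DPL (366, against 617 by DESeq2, 160 with only the 2 groups and 184 by limma on log2(RPKM + 1)) and DLDPL against LDPL (0, 33 by DESeq2 and 2 with no filter). Leaving out 1 library also moved them: DLDPL against DPL fell to 311 without DLDPL replicate 6, 344 without DLDPL replicate 29 and 343 without DPL replicate 11, LDPL against DPL to 152, 175 and 233 without LDPL replicates 5, 10 and 14, and DLDPL against LDPL gave 0 to 3. The split into higher and lower moved with the scaling. For DPL against L it was 2455 and 2418, but 1955 and 3110 under upper quartile scaling, 1277 and 3412 by limma on log2(RPKM + 1) and 1305 and 3426 on log2(RPKM + 0.1), where the median change of all genes was −0.10, −0.12 and −0.18. For LDPL against L it was 1905 and 1888, but 1543 and 2424 (median −0.10), 1214 and 2058, and 1258 and 1962. For DLDPL against DPL it was 254 and 272, but 305 and 200, 397 and 53, and 473 and 54 (median 0.15). For LDPL against DPL it was 166 and 200, but 133 and 51 by limma on log2(RPKM + 1) and 201 and 53 on log2(RPKM + 0.1) (median 0.11). The members stayed at 5 to 7 higher in each comparison with L. Those lower were 6 to 8 in DLDPL and 9 to 11 in LDPL, but 4 to 9 in DPL, with 5 in the main test, 9 by limma on log2(RPKM + 1) and 8 on log2(RPKM + 0.1). The members gained there were LBX1, HOXA3 and HOXB3 at both pseudocounts and HOXB7 at the first, and LBX1 was also gained under upper quartile scaling (adjusted p 0.0285). FOXP4 was gained in LDPL against L under upper quartile scaling and both limma settings (0.0317 to 0.0473), and HOXB7 in DLDPL against L by limma on log2(RPKM + 1) (0.0487). Levels under about 1 CPM rest on few reads, so a missing call there shows little.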
